A study of Arabidopsis thaliana with 24 samples.

Results

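The genes described here are 5 genes of Arabidopsis thaliana that encode cold-regulated (COR), low temperature-induced (LTI) or late embryogenesis abundant (LEA) proteins: COR15A (AT2G42540), COR15B (AT2G42530), COR47 (AT1G20440), LTI30 (AT3G50970) and AT2G46140. They are given by name, each through the probe set that the array's annotation pairs with it, and were proposed with earlier results of these data known. They are 5 of the 22746 probe sets that are not controls on the array, and all 5 were among the 11926 probe sets that passed a filter on low values, a log2 value of 5 or more on at least 3 of the 24 arrays. AT2G46140 lay closest to that level and reached log2 5 on 18 of 24 arrays, LTI30 and COR15B on 23, and COR15A and COR47 on all 24. No member was lost to the filter.

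LEA proteins are small, strongly hydrophilic proteins that accumulate in seeds and in vegetative tissue under cold, salt or drying, where they are known to protect membranes and enzymes as water is lost. Many of their genes are induced by abscisic acid and by the CBF/DREB transcription factors, and in rosettes the CBF pathway is gated by the circadian clock. COR15A and COR15B are close paralogs that encode LEA proteins of the chloroplast stroma, and both protect chloroplast membranes during freezing. COR47 and LTI30 are dehydrins, the LEA class with lysine-rich K segments: COR47 is an acidic dehydrin, and LTI30, also named XERO2, is a basic dehydrin that binds membranes. AT2G46140, also named LEA27, belongs to the LEA_2 class, whose members fold more tightly than other LEA proteins. COR15A and COR15B lie next to each other in the genome, and with such close copies a share of the signal on either probe set could come from the other gene, which was not tested.

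Whole rosettes of wild-type Columbia-0 plants were profiled on Affymetrix arrays at 32 days of age under a 12 h photoperiod. In the water-limited regime watering stopped after 28 days, 4 days before sampling, and in the well-watered regime it went on throughout. Both regimes were sampled at the times labelled midnight (0 h), pre-dawn (6 h), midday (12 h) and late day (18 h), which gives 8 groups of 3 arrays that the labels call biological replicates. The labels do not say whether a replicate is a single rosette or a pool, so p-values measure the spread between these arrays. Because the arrays measure RNA of a whole rosette, fewer cells of a type and less RNA per cell cannot be told apart.

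Values are log2 signals after GCRMA, with a floor at log2 2.2, and the level of a probe set is not set against that of another. Adjusted p comes from limma over the 11926 probe sets, and a gene is said to rise or fall where it is under 0.05. Array medians lay between 4.66 and 4.86, no 2 arrays were identical, and the number of arrays limits the precision. All 5 measured leaf markers were tested, with a summed log2 signal of 15.03 to 15.9 on water-limited arrays and 15.16 to 15.93 on well-watered arrays. The root gene PYK10 spanned 4.59 to 7.82 on water-limited arrays and 5.41 to 8.04 on well-watered arrays. At late day its water-limited arrays (5.73, 5.28 and 4.59) all lay below the well-watered ones (6.8, 7.16 and 7.6). Regimes did not overlap there in 13.5% of all probe sets, and the PYK10 difference of −1.99 log2 was not called (adjusted p = 0.193). The anther gene AMS was at or near the floor on all 24 arrays. The difference between 3′ and 5′ control probe sets of GAPDH, a measure of RNA quality, was 1.58 to 1.64 on water-limited against 1.31 to 1.48 on well-watered pre-dawn arrays, and 1.5 to 1.75 on water-limited against 1.26 to 1.46 on well-watered late-day arrays. These did not overlap. Water-limited midday arrays, at 1.17 to 1.43, also lay below those of midnight (1.49 to 1.6), pre-dawn and late day in that regime. Fits with the GAPDH difference as a covariate are given with the limits.

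The labelled times and the clock gene GI ran against each other. GI is known to peak in the late light period and to be lowest around dawn. GI measured 8.34, 8.37 and 8.26 on water-limited midnight arrays and 8.66, 8.38 and 8.53 on water-limited pre-dawn arrays, against 2.32, 2.31 and 2.32 at water-limited midday and the same 3 values at water-limited late day. On well-watered arrays GI lay between 7.81 and 8.51 at midnight and pre-dawn and between 2.32 and 2.76 at midday and late day. In both regimes GI was thus high at the times labelled as night and near the floor at the times labelled as day. The 5 leaf markers had no common phase: LHCB4.1 and LHCB4.2 were highest at midnight in both regimes, LHCB4.3 at midday and RCA at late day in both, and SBPASE at midday in water-limited and at late day in well-watered rosettes. The labels were kept as given, and every time below is the labelled time; whether these match the plants' own day was not tested. Comparisons of the regimes within a time do not depend on what that time is called.

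The first question was how each gene ran over the 4 times. COR15A and COR15B had their highest means at pre-dawn and the next highest at midnight in both regimes. At midday and late day they were lower than at pre-dawn by several log2 units. In well-watered rosettes COR15A at midday was not called against midnight. The means of COR47 ran in the order of those of COR15A over a narrower range. Neither COR47 nor LTI30 differed between midnight and pre-dawn beyond its spread, and AT2G46140 showed no call for time of day. Of the 5 genes, 4 differed between times in water-limited rosettes, where 53.6% of all probe sets tested did, and the same 4 differed in well-watered rosettes, where 49.9% did. The call itself is common among all probe sets. The ranges of the 4 genes, 1.92 to 5.93 log2, stood above the median range of all probe sets tested, which was 0.67 in water-limited and 0.65 in well-watered rosettes.

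COR15A measured 10.16, 9.19 and 9.29 on water-limited midnight arrays and 8.93, 9.22 and 10.03 on well-watered ones. At pre-dawn it had 11.45, 11.96 and 11.59 in water-limited rosettes and 11.62, 12.03 and 11.31 in well-watered rosettes. All 6 pre-dawn arrays stood above all 6 midnight arrays, and the regimes overlapped at both times. At midday COR15A had 6.43, 7.48 and 7.12 in water-limited and 8.39, 7.19 and 7.76 in well-watered rosettes. At late day the values were 5.17, 7.72 and 5.65 in water-limited and 5.95, 6.95 and 9.34 in well-watered rosettes. The late-day arrays were the most scattered, with replicate 2 alone high among the water-limited and replicate 3 alone high among the well-watered arrays, and the regimes overlapped again. The range between the highest and the lowest time was 5.49 log2 (44.9-fold, adjusted p = 1.84e-06) in water-limited and 4.24 (18.9-fold, adjusted p = 4.98e-05) in well-watered rosettes. Only 38 and 93 of the 11926 probe sets had a range as large in those regimes.

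In the order of its levels, COR15A at pre-dawn exceeded midnight by 2.12 in water-limited (adjusted p = 0.0269) and 2.26 in well-watered rosettes (adjusted p = 0.0203). Midnight exceeded midday by 2.54 in water-limited rosettes (adjusted p = 0.00642), while the 1.61 in well-watered rosettes did not pass (adjusted p = 0.0718); it passed when a late-day array was left out, either replicate 2 of the water-limited or replicate 1 or 3 of the well-watered ones. Midday and late day did not differ beyond their spread, with 0.83 in water-limited (adjusted p = 0.374) and 0.37 in well-watered rosettes (adjusted p = 0.729). The step between pre-dawn and midnight lay close to the threshold. In water-limited rosettes it did not pass when any of the 6 arrays but midnight replicate 1 was left out (adjusted p 0.0574 to 0.0852), and in well-watered rosettes when replicate 1 or 2 of either time was (adjusted p 0.0557 to 0.075). Between late day and midnight COR15A differed by −1.98 in well-watered rosettes (adjusted p = 0.0216). Without well-watered late-day replicate 1 it was −1.25 (adjusted p = 0.169), and it did not pass without well-watered late-day replicate 2 or midnight replicate 3 either (adjusted p = 0.0785 and 0.0949).

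COR15B, the neighbouring paralog, measured 10.7, 9.8 and 10.14 on water-limited midnight arrays and 8.73, 9.67 and 9.86 on well-watered ones. At pre-dawn it had 11.13, 11.7 and 11.41 in water-limited and 11.2, 11.59 and 11.25 in well-watered rosettes. Both times were high in both regimes. At midday COR15B had 5.61, 5.74 and 5.15 in water-limited and 5.7, 4.88 and 5.66 in well-watered rosettes. At late day it had 5.1, 6.49 and 5.28 in water-limited and 6.01, 5.48 and 6.09 in well-watered rosettes. No midday or late-day array came near any midnight or pre-dawn array, and the regimes overlapped at all 4 times. The range was 5.91 log2 in water-limited (60.3-fold, adjusted p = 5.93e-12) and 5.93 in well-watered rosettes (61.1-fold, adjusted p = 1.71e-11), the widest of the 5 genes in each regime. It was reached by 25 and 27 of the 11926 probe sets in those regimes.

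Pre-dawn exceeded midnight for COR15B by 1.2 in water-limited (adjusted p = 0.0184) and 1.93 in well-watered rosettes (adjusted p = 0.000396). The water-limited value did not pass when replicate 2 or 3 of either time was left out (adjusted p 0.0516 to 0.0849). Midnight exceeded late day by 4.59 in water-limited (adjusted p = 1.71e-09) and 3.56 in well-watered rosettes (adjusted p = 7.78e-08). Late day and midday did not differ beyond their spread (0.12 and 0.44, adjusted p = 0.826 and 0.392).

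COR47, the acidic dehydrin, measured 12.21, 11.48 and 11.13 on water-limited midnight arrays and 10.83, 10.89 and 11.43 on well-watered ones. At pre-dawn it had 12.12, 11.88 and 11.95 in water-limited and 11.36, 11.76 and 11.45 in well-watered rosettes. The pre-dawn arrays of the regimes did not overlap, with all 3 water-limited arrays above, and those of midnight did. At midday COR47 had 10.34, 9.75 and 9.99 in water-limited and 10.61, 10.35 and 10.23 in well-watered rosettes. At late day it had 9.34, 9.42 and 9.93 in water-limited and 9.04, 9.49 and 10.28 in well-watered rosettes. The midday and late-day arrays of the regimes overlapped, and each lay below every midnight and pre-dawn array of its own regime. The range was 2.43 log2 in water-limited (5.37-fold, adjusted p = 5.36e-07) and 1.92 in well-watered rosettes (3.79-fold, adjusted p = 5.4e-05). In those regimes 450 and 798 of the 11926 probe sets had a range as large.

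COR47 did not differ beyond its spread between pre-dawn and midnight (0.38 in water-limited, adjusted p = 0.391, and 0.48 in well-watered rosettes, adjusted p = 0.297). Midnight exceeded midday by 1.58 in water-limited rosettes (adjusted p = 0.00027) and by 0.65 in well-watered rosettes, which did not pass (adjusted p = 0.094). Midday and late day differed by 0.46 in water-limited (adjusted p = 0.247) and 0.79 in well-watered rosettes (adjusted p = 0.0503). The last of these lay at the threshold and passed under 6 other ways of processing, listed with the limits, and it was −1.13 as late day minus midday (adjusted p = 0.00702) without well-watered late-day replicate 3.

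LTI30, the basic dehydrin, measured 9.47, 8.39 and 8.3 on water-limited midnight arrays and 9.2, 8.3 and 9.7 on well-watered ones. At pre-dawn it had 8.33, 8.72 and 8.6 in water-limited and 8.62, 9.16 and 9.05 in well-watered rosettes. Midnight and pre-dawn values overlapped, and the regimes overlapped at both. At midday LTI30 had 6.64, 6.33 and 6 in water-limited and 7.87, 6.54 and 6.99 in well-watered rosettes. At late day it had 4.55, 8.32 and 6.31 in water-limited and 5.51, 5.45 and 7.91 in well-watered rosettes. Late day was again the most scattered time, with an SD of 1.89 in water-limited and 1.4 in well-watered rosettes (n = 3 each), and its regimes overlapped, as those of midday did. The range was 2.4 log2 in water-limited (5.27-fold, adjusted p = 0.00498) and 2.78 in well-watered rosettes (6.87-fold, adjusted p = 0.0036).

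In the order of LTI30 levels, midnight exceeded pre-dawn by 0.17 in water-limited and 0.13 in well-watered rosettes, which did not pass (adjusted p = 0.898 and 0.934). Pre-dawn exceeded late day by 2.16 in water-limited rosettes (adjusted p = 0.0147), and late day and midday there were 0.07 apart (adjusted p = 0.957). In well-watered rosettes the steps of 1.81 between pre-dawn and midday (adjusted p = 0.0759) and of 0.85 between midday and late day (adjusted p = 0.414) did not pass, though the first did when a late-day array was left out, either replicate 1 or 2 of the water-limited or replicate 3 of the well-watered ones. LTI30 was lower at midday than at midnight in both regimes (adjusted p = 0.0136 in water-limited and 0.0416 in well-watered rosettes) and than at pre-dawn in water-limited rosettes (adjusted p = 0.0261), and these calls rested on few arrays. The first did not pass without water-limited midday replicate 3 or midnight replicate 1 (adjusted p = 0.0542 and 0.0713), and the second without well-watered midday replicate 2 or 3 or midnight replicate 1 or 3 (0.0922 to 0.151). The last did not pass when any of its 6 arrays but midday replicate 1 was left out (0.0577 to 0.0881). Water-limited late-day replicate 1, at 4.55, decided the late-day calls of that regime. Without it LTI30 at late day differed by −1.41 from midnight (adjusted p = 0.0984) and by −1.24 from pre-dawn (adjusted p = 0.127), against −2.33 (adjusted p = 0.0118) and −2.16 with it. The difference from midnight also missed without water-limited midnight replicate 1 (adjusted p = 0.0606).

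AT2G46140, the LEA_2 gene, measured 5.51, 5.28 and 5.59 on water-limited midnight arrays and 5.11, 4.85 and 4.68 on well-watered ones. At pre-dawn it had 5.52, 5.34 and 5.58 in water-limited and 5.08, 5 and 4.98 in well-watered rosettes. Every water-limited array stood above every well-watered array at both times. At midday it had 5.57, 5.7 and 4.53 in water-limited and 5.28, 5 and 5.11 in well-watered rosettes. At late day it had 5.19, 5.54 and 5.34 in water-limited and 5.01, 5 and 4.99 in well-watered rosettes. The water-limited arrays were again all higher at late day, while at midday replicate 3, the lowest of all 24 values of the gene, made the regimes overlap. Its range over the day was 0.21 log2 in water-limited (adjusted p = 0.759) and 0.25 in well-watered rosettes (adjusted p = 0.75), below the median of all probe sets, so no order of the times can be read for it.

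**Figure D1:**
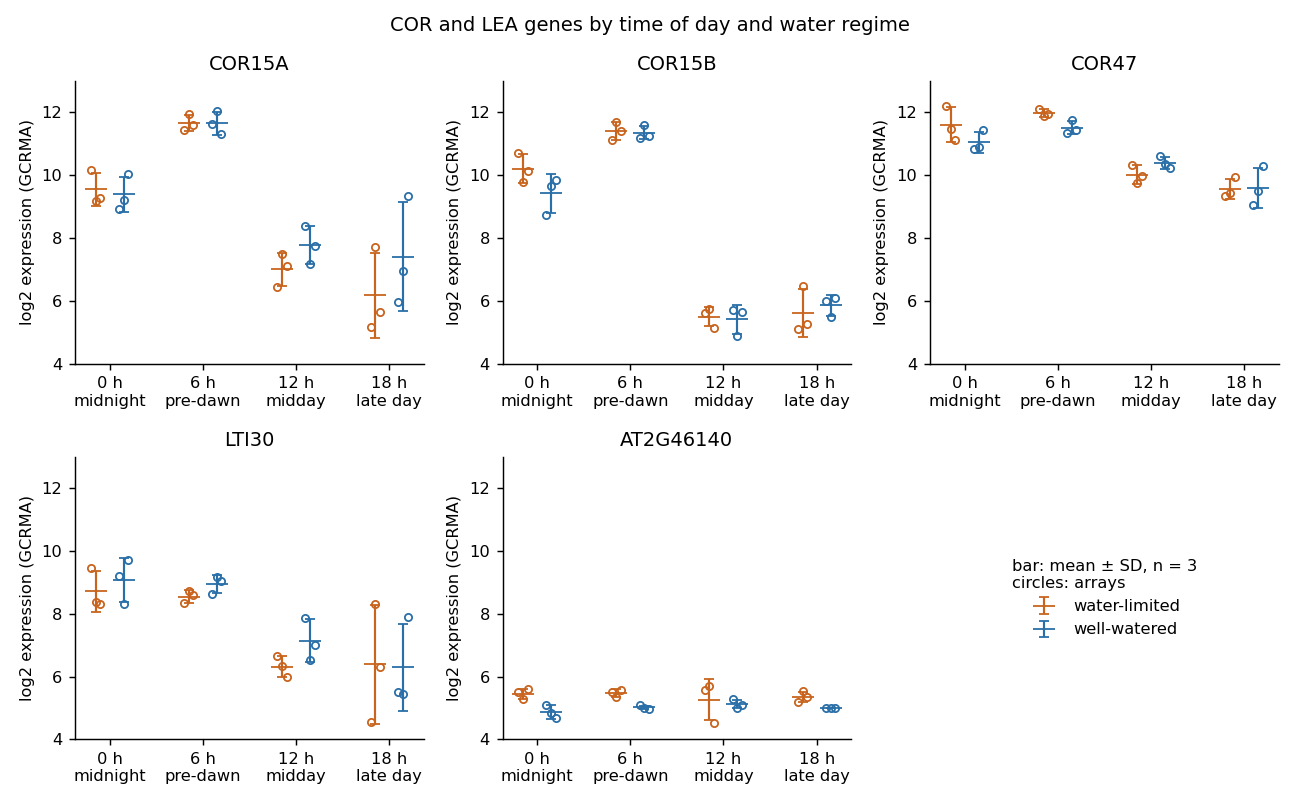
The 5 genes by labelled time (x axis), with log2 GCRMA signal on a shared y axis, water-limited left of well-watered at each time, circles for arrays and bars for mean ± SD (n = 3). COR15A and COR15B drop by several log2 units between pre-dawn and midday, COR47 and LTI30 by less, and AT2G46140 stays between 4.53 and 5.7.

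Over the pairs of times, 18 of 30 tests of the 5 genes passed in water-limited and 15 of 30 in well-watered rosettes. Pre-dawn minus midnight passed for 2 genes in each regime, COR15A and COR15B, both higher at pre-dawn, against 17.6% of all probe sets in water-limited and 15.4% in well-watered rosettes. Midday minus midnight passed for 4 of 5 genes in water-limited rosettes (24.6% of all probe sets) and for COR15B and LTI30 in well-watered rosettes (26.4%), all lower at midday. Midday minus pre-dawn passed for 4 genes in water-limited rosettes (19.3% of all probe sets) and 3 in well-watered rosettes (17.5%), again all lower at midday. Late day minus midnight passed for 4 genes in each regime (34.8% of all probe sets in water-limited, 33.9% in well-watered rosettes), and late day minus pre-dawn for the same 4 (44.2% and 42.9%), all lower at late day. Late day minus midday passed for 0 of 5 genes in each regime, against 22% (water-limited) and 20.4% (well-watered) of all probe sets called by limma. At an unadjusted p under 0.05 it had 0 of 5 in water-limited and 1 of 5 in well-watered rosettes, against 4275 and 4072 of the 11926 probe sets. The gene that was never called is AT2G46140. Of the counts over all probe sets, 5 of 12 moved by over 1.5 times when a single array was left out, each to a lower count, and the lowest of each follow. Without water-limited late-day replicate 2 late day minus midday called 1350, against 2626 with it, and without well-watered late-day replicate 1 it called 1385, against 2432. Without water-limited pre-dawn replicate 1 pre-dawn minus midnight called 1377 and midday minus pre-dawn 1428, against 2098 and 2303, and without well-watered pre-dawn replicate 1 midday minus pre-dawn called 1335, against 2082.

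The main question was how water limitation changed these genes at each time. At a single time none of the 5 genes passed the threshold, and the only change that passed in the mean of the 4 times was a rise of AT2G46140, by 0.38 log2. The counts of genes called by limma were 0 of 5 at midnight, pre-dawn, midday and late day, with 2, 1, 0 and 0 of 5 at an unadjusted p under 0.05. Of all probe sets, 0.386% were called at midnight, 7.24% at pre-dawn, 0% at midday and 0.21% at late day. A count of 0 among 5 is thus near the background at each time. At an unadjusted p under 0.05, the counts over all 11926 probe sets were 1591, 2895, 593 and 1085 in that order. The background rested on single arrays. With 1 array left out, the count over all probe sets at pre-dawn spanned 89 (water-limited replicate 1 left out) to 1791 (water-limited replicate 2), against 864 with all arrays. At midnight it spanned 16 to 113 (well-watered replicates 1 or 2, and 3), against 46, at midday 0 to 2, and at late day it fell to 9 without replicate 2 of the well-watered arrays, against 25. For COR15A, COR15B, COR47 and LTI30 the 95% intervals give the sizes of change that these arrays allow.

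COR15A differed by 0.15 log2 at midnight under water limitation, with a 95% interval of −1.19 to 1.5, and by 0.01 at pre-dawn, with an interval of −1.33 to 1.36. At midday the difference was −0.77 (−2.12 to 0.58) and at late day −1.23 (−2.58 to 0.12, adjusted p = 0.596), each with an SE of 0.65. The midnight and pre-dawn intervals both hold a 2-fold difference in either direction. In the mean of the 4 times the difference was −0.46 (SE 0.32, adjusted p = 0.388). Over the alternatives the late-day difference spanned −2.39 to −0.27 and the mean −0.66 to −0.22, none of them called. Both were nearest to 0 without well-watered late-day replicate 3, and the late-day difference also moved by over 1.5 times without well-watered replicate 1 or water-limited replicate 1 or 2 of that time.

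COR15B had the narrower intervals of the pair. It was higher by 0.79 log2 in water-limited rosettes at midnight (1.73-fold, interval 0.08 to 1.51), which did not pass (adjusted p = 0.315). The midnight arrays overlapped, and 2 of the 3 water-limited arrays lay above all well-watered ones. At the other times the difference was 0.07 at pre-dawn (−0.65 to 0.78), 0.09 at midday (−0.63 to 0.80) and −0.23 at late day (−0.95 to 0.48). The mean of the 4 times was 0.18 (SE 0.17, adjusted p = 0.544).

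COR47 was higher in water-limited rosettes by 0.56 log2 at midnight (interval −0.03 to 1.14, adjusted p = 0.405) and by 0.46 at pre-dawn (interval −0.12 to 1.05, adjusted p = 0.324). At midday the difference was −0.37 (−0.96 to 0.21) and at late day −0.04 (−0.63 to 0.54). None of these passed. The pre-dawn arrays did not overlap, which holds for 31.8% of all probe sets at that time, and they are also the arrays whose GAPDH difference did not overlap.

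LTI30 differed by −0.35 log2 at midnight (−1.78 to 1.08), −0.39 at pre-dawn (−1.82 to 1.04), −0.81 at midday (−2.24 to 0.62) and 0.10 at late day (−1.33 to 1.53). Its SE of 0.69 was the largest of the 5 genes, and no direction can be read from these values. The mean of the 4 times was −0.36 (SE 0.34, adjusted p = 0.538).

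AT2G46140 was higher in water-limited rosettes by 0.58 log2 at midnight (1.49-fold, interval 0.14 to 1.01, adjusted p = 0.22) and by 0.46 at pre-dawn (1.37-fold, interval 0.02 to 0.89, adjusted p = 0.184). At midday the difference was 0.14 (−0.30 to 0.57), and at late day it was 0.35 (−0.08 to 0.79, adjusted p = 0.653). In the mean of the 4 times AT2G46140 rose by 0.38 log2 (SE 0.10, interval 0.16 to 0.60, 1.3-fold, adjusted p = 0.0252). At that contrast 1 of 5 genes was called, against 10.1% of all probe sets, 663 of them higher and 542 lower, a total of 1205 that was 733 without water-limited pre-dawn replicate 3. The leaf marker LHCB4.3 rose on the same arrays, by 0.55 log2 in the mean (adjusted p = 0.000522), while the other 4 leaf markers were not called there, and its part in the result was not tested. The water-limited arrays were all higher at midnight, pre-dawn and late day together, as they were for 88 of the 11926 probe sets (0.738%). These times were taken from the gene's own values, so that share does not test the rise. Groups did not overlap in 15.5% of all probe sets at midnight, 31.8% at pre-dawn, 11.9% at midday and 13.5% at late day. Pre-dawn and late day are also the times at which the GAPDH difference of the regimes did not overlap.

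This rise is small and close to the threshold. Leaving out replicate 1 of water-limited midday gave an adjusted p of 0.0534, and leaving out replicate 3 of water-limited pre-dawn gave 0.0524. It was 0.0711 with the GAPDH difference as a covariate and 0.0566 with no filter on low values. Without water-limited midday replicate 3, the low array, the mean was 0.47 (adjusted p = 0.00095) and the midday difference 0.50. The gene lay between 4.53 and 5.7, near the filter level of 5. Its well-watered late-day arrays lay almost at one value (5.01, 5 and 4.99, SD 0.01). Whether its well-watered signal stood above the background signal of the probe set was not tested.

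**Figure D2:**
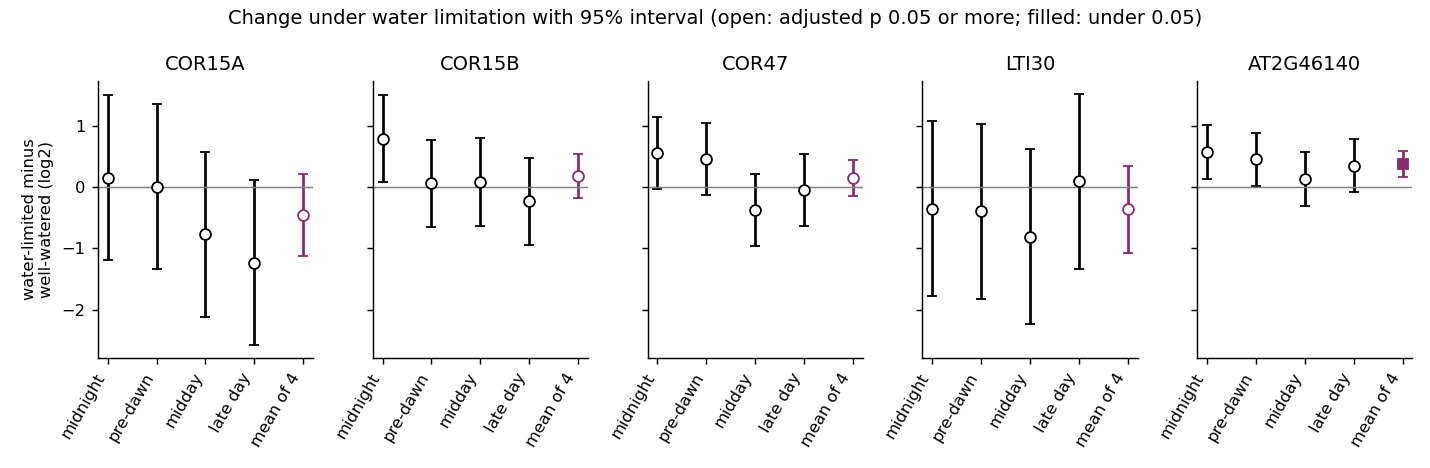
Change under water limitation (y axis, water-limited minus well-watered, log2) at each labelled time and in the mean of the 4 times (x axis) for the 5 genes, with bars for the 95% interval from limma. The filled square, the mean of AT2G46140 at 0.38, is the only value with an adjusted p under 0.05.

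A further question was whether the change under water limitation depended on the time. The F-test of a difference between the 4 changes called 0 of 5 genes by limma, against 0.0503% of all probe sets. At an unadjusted p under 0.05 it had 0 of 5, against 1213 of the 11926 probe sets. The spread between the largest and smallest of the 4 changes was 1.38 log2 for COR15A (adjusted p = 0.802), 1.03 for COR15B (0.704), 0.93 for COR47 (0.576), 0.91 for LTI30 (0.959) and 0.44 for AT2G46140 (0.85). The change at the 2 times labelled as night minus that at the 2 times labelled as day also called 0 of 5, against 0.0839% of all probe sets. Unadjusted it had 1 of 5, against 1534 of the 11926 probe sets. That difference was 0.72 for COR47 (SE 0.28, interval 0.13 to 1.30, adjusted p = 0.293). Its mean was higher in water-limited rosettes at midnight and pre-dawn, lower at midday and nearly equal at late day (−0.04), none of them called. For COR15A the night minus day difference was 1.08 with a wider interval (−0.26 to 2.43, adjusted p = 0.492), for COR15B 0.50 (−0.21 to 1.22), for AT2G46140 0.27 (−0.16 to 0.71) and for LTI30 −0.02 (−1.44 to 1.41). With array quality weights the night minus day value of COR47 was 0.93 and passed (adjusted p = 0.0381). With these weights 911 of all probe sets passed, against 10 without them. The wide intervals do not show that the change was alike at all times. Without water-limited pre-dawn replicate 2 the difference between times called 210 of all probe sets, against 6, and night minus day 209, against 10.

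Within the groups, COR15A, COR15B, COR47 and LTI30 were often highest on the same array. COR15A and COR15B were highest on the same replicate in 8 of 8 groups, which 2 of the other 11925 probe sets do with COR15A (0.0168%), COR15B included. LTI30 was highest on the replicate of COR15A in 7 of 8 groups and COR47 in 5 of 8, and all 4 shared it in 5 of 8. AT2G46140 shared the highest replicate with COR15A in 3 of 8 groups. On water-limited late-day replicate 2, COR15A, COR15B and LTI30 stood above both other arrays of the group, with 7.72, 6.49 and 8.32, while COR47 was highest on replicate 3. On well-watered late-day replicate 3 all 4 were highest, with 9.34 for COR15A, 6.09 for COR15B, 10.28 for COR47 and 7.91 for LTI30. The SD within a group reached 1.74 for COR15A and 1.89 for LTI30, both at late day, and 0.76 for COR15B and 0.63 for COR47. For AT2G46140 it ran from 0.01 at well-watered late day to 0.64 at water-limited midday. The fit used 1 spread per gene over all groups.

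**Figure D3:**
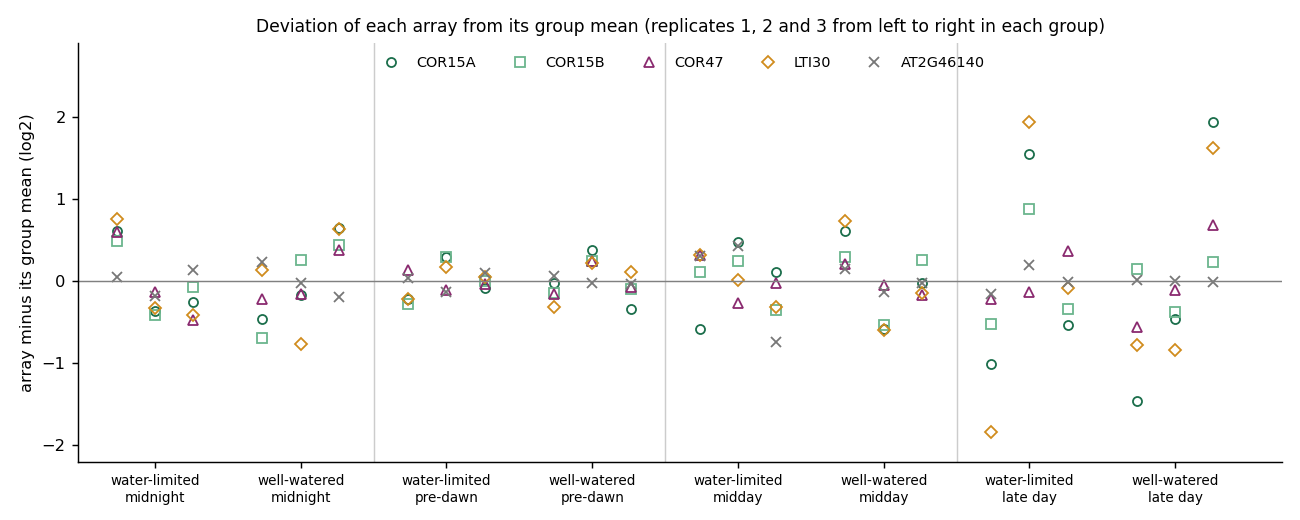
Deviation of each array from its group mean (y axis, log2) for the 5 genes in the 8 groups (x axis, replicates 1 to 3 from left to right, water-limited left of well-watered at each labelled time). COR15A and LTI30 lie farthest from 0 at late day, and COR15A and COR15B share the highest replicate in 8 of 8 groups.

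Over the 24 arrays, COR15A, COR15B, COR47 and LTI30 ran alike, with Pearson correlations of 0.82 to 0.92 between pairs, and AT2G46140 correlated with them at 0.05 to 0.14. These points share the 4 labelled times, so the values mainly describe the daily course. The 3 most similar of 6288 probe sets assigned to 1 gene were GI (0.969), AT1G51090 (0.965) and AT3G55760 (0.954) for COR15B. For COR47 they were AT1G07040 (0.959), AT1G11210 (0.955) and AT5G27930 (0.951). For COR15A they were AT4G30650 (0.884), AT4G33490 (0.882) and AT4G32340 (0.879), and for LTI30 AT5G13200 (0.873), AT2G16660 (0.869) and AT1G51090 (0.852). The genes most like AT2G46140 were less close, AT5G66440 (0.723), AT5G58740 (0.716) and AT2G22900 (0.665).

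Of 46 other LEA family genes listed, 30 had a probe set of their own by name and 4 passed the filter. By limma 0 of 4 were called for water limitation at any time or in the mean, beside 0% to 10.1% of all probe sets. At an unadjusted p under 0.05 there was 1 at midday, beside 593 of the 11926 probe sets. There were 0 at the other times and in the mean, where 3114 of all probe sets passed unadjusted. The median change of the 4 genes ran from −0.13 at late day to 0.11 at midnight, against 0.01 and −0.02 over all probe sets. All 4 were called for time of day in water-limited rosettes (median range 0.88 against 0.67 over all probe sets, 53.6% of which were called) and 2 in well-watered rosettes (0.62 against 0.65, with 49.9% called). The dehydrin gene AT1G54410 (HIRD11) had means of 13.81, 14.05, 13.43 and 12.22 from midnight to late day in water-limited rosettes and 13.61, 13.92, 13.31 and 12.60 in well-watered rosettes. As for COR47, its highest mean was at pre-dawn, with a range of 1.83 in water-limited (adjusted p = 9.71e-06) and 1.32 in well-watered rosettes (adjusted p = 0.000685). AT2G44060 (LEA26), like AT2G46140 of the LEA_2 class, had ranges of 0.79 (adjusted p = 0.00187) and 0.83 (adjusted p = 0.00113). AT2G23120 and DI21 passed in water-limited rosettes alone, with ranges of 0.84 and 0.92 against 0.41 and 0.18 in well-watered rosettes. The test of a difference between the regimes' courses called neither, with a spread between the 4 changes of 0.56 for AT2G23120 (adjusted p = 0.698) and 0.78 for DI21 (adjusted p = 0.665).

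The other 26 LEA genes were too weak to be tested. In 19 of them the highest of 24 arrays stayed under log2 3, and 7 lay at the floor on all 24. LEA4-5 came closest to the filter, with 3.19 to 4.96 on water-limited arrays and 3.89 to 5.47 on well-watered arrays, and no other of the 26 passed 4.81.

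**Figure D4:**
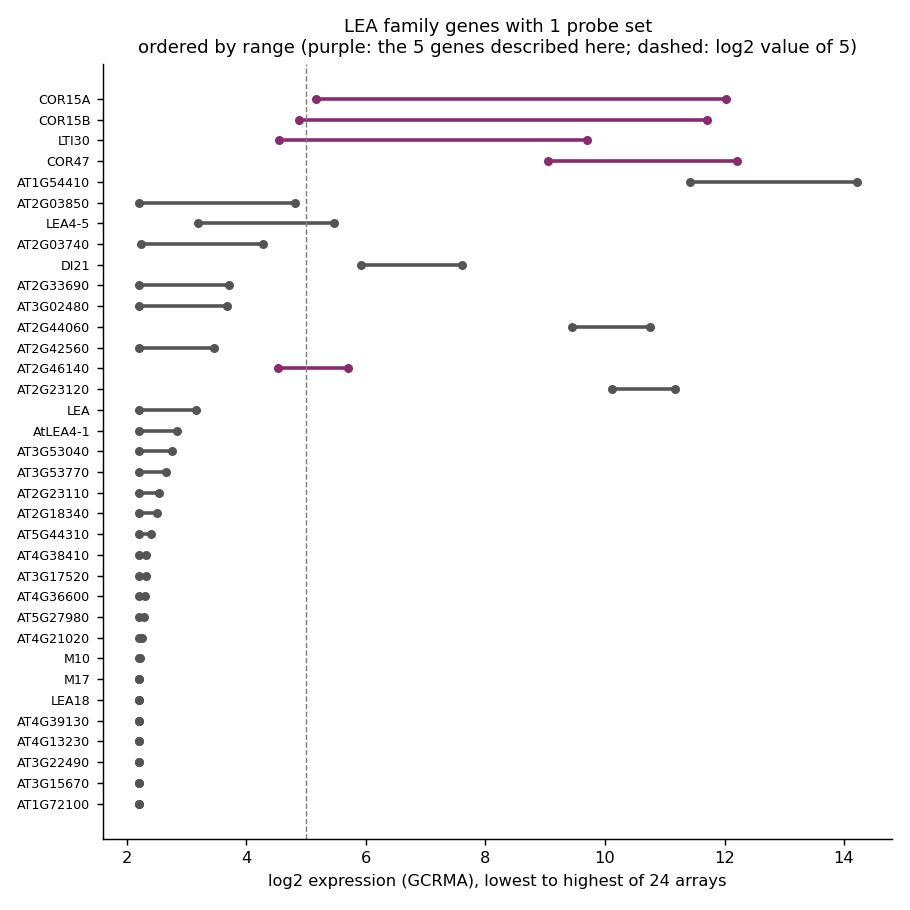
Lowest and highest log2 GCRMA signal of 24 arrays (x axis) for each LEA family gene with 1 probe set (y axis, ordered by the width of the range), with the filter level as a dashed line at 5. COR15B and COR15A have the widest ranges, and most other LEA genes stay below the dashed line.

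The other pathway lists were thinly covered by name. Of 26 further cold, abscisic acid and dehydration genes, 3 were measured and tested: COR27, AT4G33980 and AT4G30650. All 3 were called for time of day in both regimes, beside 53.6% of all probe sets in water-limited and 49.9% in well-watered rosettes, and were highest at pre-dawn, as COR15A and COR15B were. By limma 0 of 3 were called for water limitation at any time or in the mean, beside 0% to 10.1% of all probe sets. At an unadjusted p under 0.05 there were 2 at midnight and 1 in the mean, beside 1591 and 3114 of the 11926 probe sets. COR27, a cold-regulated gene tied to the clock, departed from the COR15 genes at midnight, where it had its lowest mean in both regimes, 3.25 in water-limited and 2.79 in well-watered rosettes. AT4G30650 had means of 11.27, 12.12, 9.3 and 7.45 from midnight to late day in water-limited rosettes and 10.64, 12.09, 9.06 and 7.23 in well-watered rosettes, the order of COR15A. Of 25 abscisic acid signalling and metabolism genes none was measured by name, and of 18 CBF/DREB factors and regulators only STZ was. STZ, a zinc-finger repressor of stress genes, was called for time of day in water-limited rosettes (range 2.36, adjusted p = 0.00144) and not in well-watered rosettes (1.18, adjusted p = 0.169), and its change under water limitation ran from −0.73 at late day to 0.99 at pre-dawn, not called by limma at any time. The spread between its 4 changes was 1.71 and did not pass either (adjusted p = 0.575). Of 20 clock genes GI and AT5G52660 were tested. GI was called for time of day in both regimes. AT5G52660 was called in water-limited rosettes (range 0.93, adjusted p = 0.00319) and not in well-watered rosettes (0.64, adjusted p = 0.0823). The spread between its 4 changes was 0.56 and did not pass (adjusted p = 0.652). AT5G52660 rose by 0.37 log2 in the mean under water limitation (adjusted p = 0.0307), about the size of the rise of AT2G46140, beside 10.1% of all probe sets called there. The activity of the abscisic acid and CBF pathways in these rosettes cannot be read from named probe sets here.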

How the data were processed

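The deposited values are log2 expression values per probe set and array. Per the submitters' processing notes the authors obtained them with GCRMA, with its version not given in the sources used here. They were used as deposited for 22810 probe sets, 64 of them controls, and 25.5% of values lay within 0.001 of the lowest. Gene names came from the array's annotation, in which 13513 probe sets have exactly 1 gene, and from the TAIR10.1 annotation.

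Probe sets with log2 5 or more on at least 3 of 24 arrays were fitted with limma 3.58.1 in R 4.3.3: 8 group means, 1 spread per probe set (16 residual and 4.57 prior degrees of freedom), two-sided moderated tests and F-tests, Benjamini-Hochberg over the 11926 probe sets of each contrast, threshold 0.05. The script was tested on simulated data. The members and gene lists were chosen with earlier results of these data known. All members are named, with the 3 most similar genes each, and list members that passed or were the only measured ones. Seed markers had no probe set by name, flower markers 1, root markers 1 and leaf markers 5 of 10. Leaf markers LHCB4.3 and LHCB4.2 were called at pre-dawn (0.66 and −0.57 log2), and LHCB4.3 in the mean of the 4 times (0.55).

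Alternatives were no filter, a mean log2 of at least 6, median centring, quantile normalization, trend and robust moderation, array quality weights, a replicate block, the compared arrays alone, GAPDH as a covariate and each array left out. A fit without the 6 late-day arrays was chosen after seeing the data.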

Additional observations from a re-analysis of the deposited data

How the results depend on the processing

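The calls of COR15A, COR15B, COR47 and LTI30 for time of day held in both regimes under all 33 alternatives, and at midnight, midday and late day water limitation called 0 of 5 genes under each. AT2G46140 in the mean of the 4 times passed in 26 of 31 alternatives (0.33 to 0.47 log2). The number of genes called there was 0 with no filter (adjusted p = 0.0566), with a mean log2 of at least 6, where the gene was not tested, with the replicate block (0.38, adjusted p = 0.065) and with the GAPDH covariate (0.33), and 0 to 1 with an array left out. With array quality weights 1 gene was called at pre-dawn (AT2G46140, 0.49, adjusted p = 0.041) and 1 for night minus day (COR47, 0.93, adjusted p = 0.0381). Apart from AT2G46140 in the mean, the replicate block changed 1 call of the 5 genes, COR47 late day minus midday in well-watered rosettes (−0.79, adjusted p = 0.0493), which also passed with a mean log2 of at least 6, median centring, quantile normalization, trend moderation and the GAPDH covariate (−0.90, adjusted p = 0.0334). Replicate numbers did not pair the arrays: arrays of equal number deviated together with a correlation over 0.1 in 0 of 12 pairs at 1 time in both regimes (−0.538 to 0.093) and in 7 of 36 pairs of 1 regime at 2 times (−0.291 to 0.45). Without the late-day arrays, well-watered COR15A midday minus midnight (adjusted p = 0.00272) and LTI30 midday minus pre-dawn (adjusted p = 0.00265) passed, as each did without any of 3 single late-day arrays. With array quality weights well-watered COR15A and COR47 midday minus midnight (adjusted p = 0.0121 and 0.0314) and LTI30 midday minus pre-dawn (0.0106, and 0.0473 with the compared arrays alone) passed, and with trend moderation LTI30 midday minus midnight missed (0.0627). With no filter 7 calls missed, 6 of them between times (adjusted p 0.0565 to 0.115). LTI30 missed with the GAPDH covariate at water-limited midday against midnight (−1.82, adjusted p = 0.168) and pre-dawn (−1.50, adjusted p = 0.325).

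Signs turned only in values that were not called. With array quality weights these were COR15A at pre-dawn (−0.04), LTI30 at midnight (0.06), late day (−1.21) and night minus day (0.78), late day minus midday of well-watered COR15A (0.34) and of water-limited COR15B (−0.23) and LTI30 (−0.78), and well-watered LTI30 pre-dawn minus midnight (0.18). With the GAPDH covariate they were COR15B at pre-dawn (−0.09), COR47 (0.15) and LTI30 (−0.38) at late day, water-limited late day minus midday of COR15B (−0.13) and LTI30 (−0.62), and well-watered LTI30 pre-dawn minus midnight (0.02). Median centring gave −0.01 for COR15A at pre-dawn and 0.00 for LTI30 night minus day, and quantile normalization 0.04 for the last. The cause was not tested. With an array left out, COR15A spanned −0.15 to 0.47 at midnight and −0.16 to 0.20 at pre-dawn, COR15B −0.08 to 0.21 at pre-dawn, −0.18 to 0.26 at midday and −0.67 to 0.03 at late day, COR47 −0.32 to 0.30 at late day, AT2G46140 −0.08 to 0.50 at midday, and LTI30 −0.86 to 1.03 at late day and −0.48 to 0.47 for night minus day. Between times, water-limited LTI30 spanned −0.38 to 0.21 for pre-dawn minus midnight and −0.89 to 0.99 for late day minus midday, for which water-limited COR15B spanned −0.31 to 0.38 and well-watered COR15A −1.34 to 0.36, and well-watered LTI30 −0.51 to 0.19 for pre-dawn minus midnight.

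Counts over all probe sets moved more. For water limitation at midnight, 46 became 29 with the stricter filter, 70 with array quality weights, 8 with the replicate block and 0 with the compared arrays alone. At pre-dawn 864 became 547 with no filter, 4252 with weights, 199 with the block, 7 with the compared arrays alone and 376 with GAPDH. At midday 0 became 11 with no filter and 3 with weights. At late day 25 became 11 with the stricter filter, 52 with weights, 13 with the block, 0 alone and 15 with GAPDH. In the mean 1205 became 763 with no filter, 2160 with weights and 484 with the block. Night minus day went to 18 with the stricter filter, 911 with weights and 3 with the block or GAPDH, against 10, and the difference between times to 37 with no filter, 3 with quantile normalization, 11 with trend moderation, 416 with weights and 0 with the block, against 6.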
